A study of Mus musculus with 10 samples.

Results

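Aminoacyl-tRNA synthetases are the enzymes that load each amino acid onto its transfer RNA. Their genes were compared between livers of mice with and without the glucagon receptor. The members were 36 genes, 20 for enzymes of the cytosol and 16 for enzymes of the mitochondrion. They were chosen by name and not by a cut on measured values, though with earlier results of these data known. All 36 were among the 18921 genes tested. For 10 of them the array used an older or different name, and these were matched through the transcript accession or a synonym. The array's "Vars2" is the cytosolic valine enzyme Vars, its "Vars2l" is the mitochondrial Vars2, and its "Hars2" is Dtd1, which is not a synthetase and was left out of the members.

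The series measured RNA from 5 mouse livers with the genotype wt/wt (WT) and 5 with GCGR ko/ko (KO), as the labels spell them. By sex there were 3 male and 2 female livers in WT, against 2 male and 3 female livers in KO. The reference on the other channel of every array was a pooled mouse RNA. Strain, age, diet, time of day and the part of the gene that was deleted are not given in the sources used here, and nothing in them names a treatment. The KO is labelled by genotype alone, with no promoter or cell type that would limit it to hepatocytes.

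A synthetase recognises one amino acid and the transfer RNAs that carry it, joins them at the cost of ATP, and so sets the supply of charged transfer RNA for the ribosome. Liver uses this supply both for its own proteins and for the plasma proteins it exports, and mitochondria keep a second set of enzymes, encoded in the nucleus, for the few proteins of their own genome. When charging fails, uncharged transfer RNA activates the kinase GCN2, which raises the transcription factor ATF4, and several cytosolic synthetase genes are known targets of ATF4. Glucagon drives amino acid breakdown in liver, and loss of its receptor is known to raise amino acids in blood.

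Each value below is a log2 ratio of liver RNA (Cy5) over the reference (Cy3) for 1 probe per gene, so ratios compare livers with each other and not one gene with another. The words passed, rose and fell are kept for an adjusted p under 0.05 in limma, over all genes tested, in a model with genotype and sex. Gcgr itself was at 7.99 ± 0.16 in WT and 0.32 ± 0.04 in KO livers (SD, n = 5 each), so no liver went against its label. The arrays lay on 4 slides, with a median net Cy5 signal of 112 to 134 on slides 1 and 2 and of 58.7 to 78.9 on slides 3 and 4. Slide 1 held 2 WT males, a KO male and a KO female, slide 2 held 2 KO females, slide 3 held 2 WT females and a KO male, and slide 4 held a WT male. The hepatocyte markers were far above the reference in every liver (mean log2 ratio 6.97 to 7.61 in WT and 7.21 to 7.32 in KO), and none of the 6 tested passed for genotype. The probes of 35 members were well above background on all 10 arrays and that of Mars2, the mitochondrial methionine enzyme, on 6. No member's probe was saturated or had a missing value.

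Few synthetase genes differed between the genotypes, and those that did were lower in KO livers. Of the 20 cytosolic genes 1 fell and none rose, and of the 16 mitochondrial genes 2 fell and none rose. Over all genes tested 5.96% passed, 3.08% as falls and 2.88% as rises, so 3 of 36 is a share near the background. The 3 were Eprs in the cytosol and Nars2 and Cars2 in the mitochondrion. The differences were small: the fitted KO level was 82.1% of WT for Eprs, 76.6% for Cars2 and 63.5% for Nars2. None of the 3 passed with arrays centred on their median in place of loess, or with flagged spots removed at a later step, though all kept their sign.

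**Figure D1:**
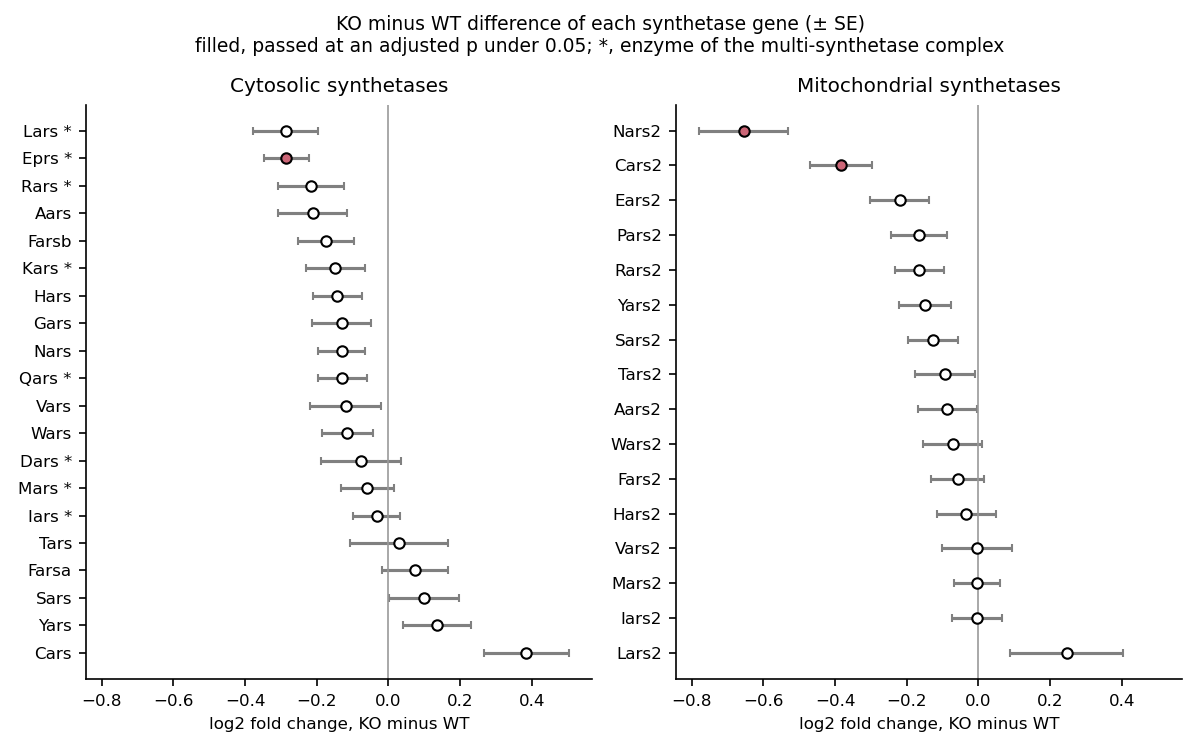
Log2 fold change (KO minus WT) of each of the 20 cytosolic and 16 mitochondrial synthetase genes, with the standard error from the fit with genotype and sex. Most points lie left of 0, and the 3 filled points (Eprs, Nars2 and Cars2) passed. With median centring 12 cytosolic and 7 mitochondrial genes lie below 0, a setting in which the median of all genes lies above 0.

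Many more members lay below 0 than passed. The fitted difference was below 0 in 15 of 20 cytosolic and 15 of 16 mitochondrial genes, against 50.7% of all genes. The median was -0.12 in the cytosolic and -0.09 in the mitochondrial set, against -0.0028 over all genes tested. With each array centred on its median in place of loess the counts were 12 of 20 and 7 of 16, and the mitochondrial median was 0.0069, where that of all genes was 0.07. At an unadjusted p under 0.05, 9 members lay below 0 (Aars, Eprs, Farsb, Lars and Rars in the cytosol, Cars2, Ears2, Nars2 and Rars2 in the mitochondrion), as did 10.3% of all genes. Only Cars lay above 0 at that level, as did 10.6% of all genes. In the 33 genes that did not pass, the 95% intervals of the difference ran from no lower than -0.48 to no higher than 0.65.

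The cytosolic enzymes fall into those held in the multi-synthetase complex, a large particle of 8 enzymes and 3 scaffold proteins, and those outside it. All 8 enzymes of the complex had a difference below 0, with a median of -0.14. With median centring, however, Dars, Iars and Mars were above 0, as was the median of all genes. Of these 8 only Eprs passed. Eprs charges both glutamate and proline and is the one member with 2 activities in 1 protein. The WT livers, from 1 to 5, gave log2 ratios of -0.35, -0.36, -0.44, -0.53 and -0.45, and the KO livers -0.74, -0.74, -0.81, -0.82 and -0.57. Every KO liver lay below every WT liver, which held for 3.07% of all genes (the reverse held for 2.95%, and for no member), and the nearest KO liver was the male KO 5. The mean was -0.43 ± 0.08 in WT and -0.73 ± 0.10 in KO (SD, n = 5 each), a fold change of -0.29 (SE 0.06, adjusted p = 0.0236).

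All 4 probes of Eprs on the array were lower in KO livers, at -0.34 to -0.21, and 2 of them passed in a fit over all probes. The probe used lies on chromosome 1, at 184945858 to 184949940 in the array files' coordinates (mm7, for which gene models were not used here). The call was narrow. With slide as a fixed block the change was -0.28 (adjusted p = 0.0633) and with slide as a random block it passed (-0.28, adjusted p = 0.0159). It was -0.39 within slide 1 and -0.08 within slide 3. It was also lost without any one of WT 2, WT 3, KO 1, KO 3 or KO 4 (adjusted p = 0.0514 to 0.0929), while the change stayed between -0.40 and -0.21 over the 23 alternatives, of which 12 kept the call.

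Lars, the leucine enzyme, which also senses leucine for mTORC1, had the same size of difference without passing. WT livers 1 to 5 were at -1.25, -1.20, -0.93, -1.19 and -1.42, and the KO livers, in the same order, at -1.49, -1.52, -1.51, -1.51 and -1.33. The groups overlapped only through KO 5, which lay above WT 5. The fold change was -0.29 (SE 0.09, adjusted p = 0.0891), and it passed without KO 5 (-0.36, adjusted p = 0.0476) or without WT 5 (-0.33, adjusted p = 0.0461). With all 10 livers and the mean of all probes it also passed (-0.28, adjusted p = 0.018). In all, it passed in 3 of the 23 alternatives. Its 3 probes ran from -0.32 to -0.24, and 1 of them passed in the fit over all probes (adjusted p = 0.029).

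The other enzymes of the complex had smaller differences. Rars, for arginine, was at -0.83 ± 0.14 in WT and -1.04 ± 0.14 in KO livers (SD, n = 5 each), a fold change of -0.22 (SE 0.09, adjusted p = 0.206) that was -0.07 with slide as a fixed block. Kars (lysine), Qars (glutamine), Dars (aspartate), Mars (methionine) and Iars (isoleucine) lay between -0.15 and -0.03, each with an adjusted p of at least 0.315. Of the scaffold proteins, Aimp1 had a fold change of 0.04, Aimp2 of -0.18 and Eef1e1 of -0.07, and none passed.

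Of the 12 cytosolic enzymes outside the complex none passed, 7 were below 0, and the median was -0.12. Aars, the alanine enzyme, had the lowest value among them (-0.21, SE 0.10, adjusted p = 0.234). Its ratio was 0.06, 0.14, -0.36, -0.40 and -0.12 from WT 1 to WT 5, against -0.42, -0.27, -0.41, -0.45 and -0.38 from KO 1 to KO 5. The KO livers sat together at the level of the 2 WT females, below the 3 WT males. Farsb, the beta subunit of the phenylalanine enzyme, was at -0.17 (SE 0.08), whereas Farsa, its alpha subunit, was at 0.07 (SE 0.09), with probes from -0.12 to 0.07. Hars (histidine), Gars (glycine), Nars (asparagine), Vars (valine) and Wars (tryptophan, induced by interferon) lay between -0.14 and -0.12. A second Wars probe, well above background on all 10 arrays, gave -0.30 (SE 0.09, adjusted p = 0.0763) in the fit over all probes.

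The values above 0 were led by Cars, the cysteine enzyme. From WT 1 to WT 5 it was at -0.70, -0.82, -1.18, -1.22 and -0.80, and from KO 1 to KO 5 at -0.69, -0.54, -0.52, -0.37 and -0.77. All 5 KO livers were above 4 of the 5 WT livers, and the 2 lowest were the WT females. The fold change was 0.38 (SE 0.12, adjusted p = 0.0873), all 3 probes lay between 0.26 and 0.38, and the value ran from 0.25 to 0.49 over the 23 alternatives. One of these passed, the fit without KO 5 (0.48, adjusted p = 0.0475). Yars (tyrosine, 0.13, SE 0.10), Sars (serine, 0.10, SE 0.10) and Tars (threonine, 0.03, SE 0.14) were the other enzymes above 0 besides Farsa, and with slide as a fixed block Sars was at -0.04, Tars at -0.15 and Farsa at -0.02.

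In the mitochondrial set the 2 genes that fell load asparagine (Nars2) and cysteine (Cars2). Nars2 had the largest difference of the 36. From WT 1 to WT 5 the ratios were 1.48, 1.60, 0.69, 1.31 and 1.23, against 0.78, 0.32, 0.33, 0.12 and 0.96 from KO 1 to KO 5. The groups overlapped through the female WT 3, which lay below the 2 KO males, and within each sex every KO liver was below every WT liver. The mean was 1.26 ± 0.35 in WT and 0.50 ± 0.35 in KO (SD, n = 5 each), a fold change of -0.65 (SE 0.12, adjusted p = 0.0107).

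Nars2 was the one member that passed with slide as a fixed block (-0.67, adjusted p = 0.0325), where 6.35% of all genes passed, 3.2% as falls and 3.16% as rises. It was at -0.99 within slide 1, at -0.76 among the males of that slide and at -0.04 within slide 3, where the KO liver is male and the WT livers are female. It kept its call without any 1 liver and in 18 of 23 alternatives, with a change between -0.76 and -0.37, and it lost the call without the sex term (-0.76, adjusted p = 0.0628). The probe used lies on chromosome 7 at 93094282 to 93094341 (mm7). A second Nars2 probe, well above background on 7 of the 10 arrays, gave -0.09 (SE 0.10, adjusted p = 0.695), so the fall rests on 1 probe.

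Cars2 was at 0.26, 0.60, 0.50, 0.42 and 0.63 from WT 1 to WT 5 and at 0.08, 0.25, 0.07, 0.03 and 0.06 from KO 1 to KO 5. Every KO liver was below every WT liver, narrowly so for KO 2 against WT 1. The mean went from 0.48 ± 0.15 to 0.10 ± 0.09 (SD, n = 5 each), a fold change of -0.38 (SE 0.09, adjusted p = 0.0238). It was -0.27 within slide 1 and -0.40 within slide 3. The probe lies on chromosome 8 at 11484163 to 11484222 (mm7), and a second probe gave -0.16 (SE 0.12, adjusted p = 0.503). With slide as a fixed block the change was -0.31 (adjusted p = 0.0915) and as a random block -0.37 (adjusted p = 0.0191). The call was lost without any one of WT 2, WT 3, KO 1, KO 3, KO 4 or KO 5 (adjusted p = 0.0509 to 0.0758). Over the 23 alternatives the change stayed between -0.43 and -0.25, and 11 kept the call.

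**Figure D2:**
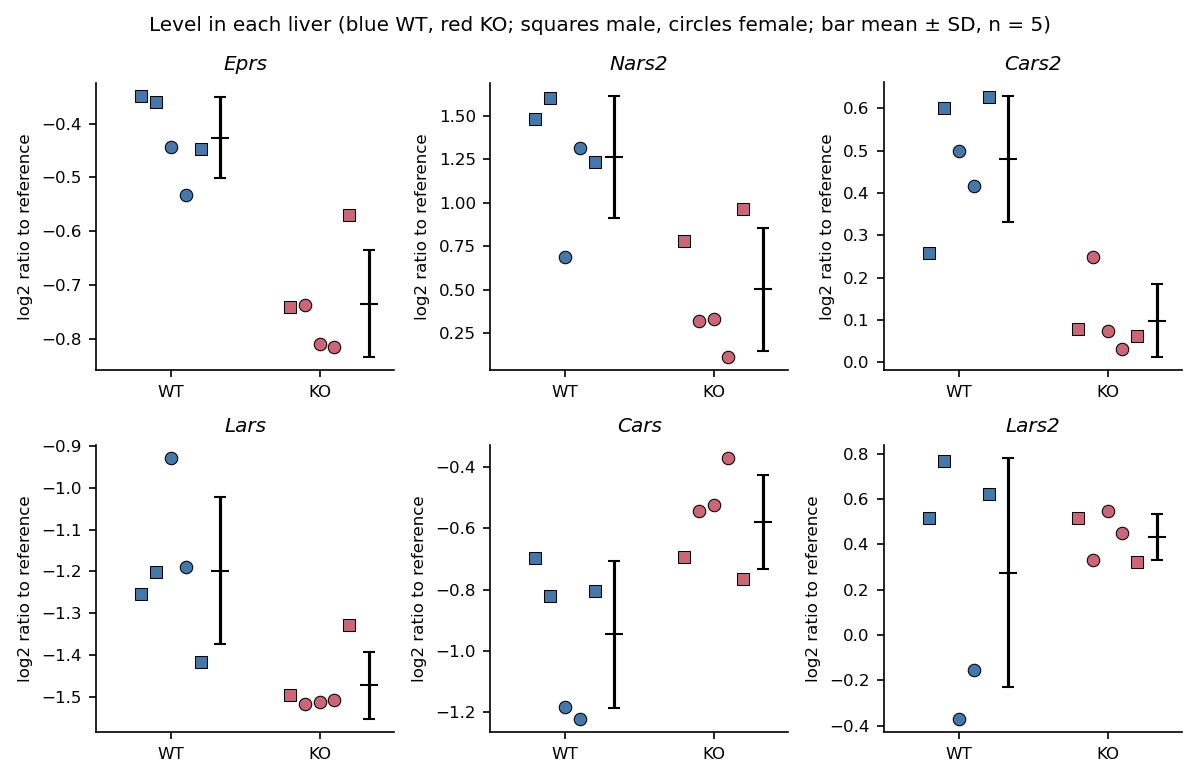
Log2 ratio to the reference in each of the 10 livers for 6 synthetase genes, with the mean and SD of each genotype (n = 5). Eprs and Cars2 have every KO liver below every WT liver, Nars2, Lars, Cars and Lars2 overlap, and in Cars and Lars2 the lowest values are those of the WT females.

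The remaining mitochondrial genes did not pass. The next lowest were Ears2 (glutamate, -0.22, SE 0.08, adjusted p = 0.148), Pars2 (proline, -0.17, SE 0.08) and Rars2 (arginine, -0.17, SE 0.07). Yars2, Sars2, Tars2, Aars2, Wars2, Fars2 and Hars2 lay between -0.15 and -0.03. Vars2, Mars2 and Iars2 were at -0.0040, -0.0039 and -0.0038, nearest to 0 of the 36. A second Iars2 probe, however, rose by 0.35 (SE 0.08, adjusted p = 0.0236) in the fit over all probes, and the remaining probe gave 0.07.

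The single mitochondrial gene above 0 was Lars2, the leucine enzyme (0.25, SE 0.16, adjusted p = 0.424). From WT 1 to WT 5 it was at 0.52, 0.77, -0.37, -0.15 and 0.62, and from KO 1 to KO 5 at 0.52, 0.33, 0.55, 0.45 and 0.32. The 2 WT females were the lowest of the 10 livers and the WT males WT 2 and WT 5 the highest, with the KO livers above both WT females. Its SD was 0.51 in WT and 0.10 in KO.

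A mitochondrial enzyme and its cytosolic counterpart for the same amino acid did not always lie on the same side of 0. Counting Eprs once with Ears2 and once with Pars2, 15 pairs were formed, of which 10 had the same sign and 5 opposite signs. The cysteine pair stood furthest apart, with Cars at 0.38 and Cars2 at -0.38, and the leucine pair had -0.29 for Lars and 0.25 for Lars2. The serine, threonine and tyrosine pairs also had a cytosolic value above 0 (0.10, 0.03 and 0.13) and a mitochondrial value below it (-0.13, -0.09 and -0.15). In the asparagine pair both were below 0, at -0.13 for Nars and -0.65 for Nars2. Phenylalanine was left out of the pairs because its cytosolic enzyme has 2 subunits, Farsa above 0 (0.07) and Farsb below it (-0.17), where Fars2 was at -0.06. These differences between partners were not tested.

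Seen liver by liver, the sets separated the genotypes in part. The median deviation of the 20 cytosolic genes from their own means was 0.15, 0.16, -0.0059, -0.06 and 0.04 from WT 1 to WT 5, against -0.07, -0.07, -0.06, -0.07 and 0.0039 from KO 1 to KO 5. The 2 WT males of slide 1 were highest, and the 2 WT females of slide 3 lay within the range of the KO livers. In the 16 mitochondrial genes it was 0.10, 0.15, 0.06, -0.06 and 0.10 in WT and -0.04, -0.04, -0.03, -0.15 and -0.06 in KO, with WT 4 the one liver that overlapped. The mean log2 ratio over the genes was also taken in place of the median deviation. By it the cytosolic set overlapped (-0.90 to -0.71 in WT and -0.92 to -0.87 in KO). The mitochondrial set did not (0.33 to 0.52 in WT and 0.20 to 0.32 in KO), but the gap was narrow, between WT 4 (0.33) and KO 1 (0.32). That mean includes Nars2, at 1.31 in WT 4 and 0.78 in KO 1, so it does not show a separation across the set. The 6 hepatocyte markers had a like order among the WT livers, with a median deviation of 0.21, 0.18, 0.0047, -0.27 and 0.11 from WT 1 to WT 5. The KO livers did not keep that likeness. For the markers KO 1 was the highest of them (0.04) and KO 5 the lowest (-0.07), whereas KO 5 was the highest for the cytosolic genes (0.0039). The median fold change of the markers was -0.10, with 4 of the 6 below 0 and a range of -0.24 to 0.31. The part of hepatocyte content in the synthetase values was not tested. Members also varied more among WT than among KO livers, with a median SD of 0.17 and 0.08 in the cytosolic set and of 0.12 and 0.09 in the mitochondrial set. Over all genes these were 0.16 and 0.13.

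**Figure D3:**
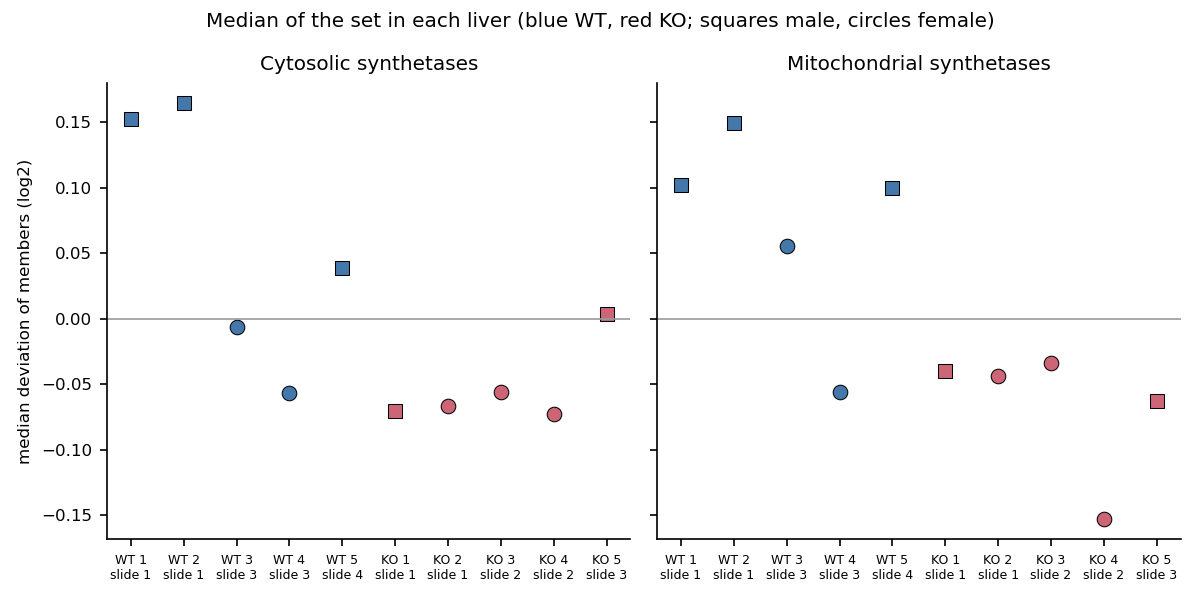
Median over the 20 cytosolic and the 16 mitochondrial genes of each liver's deviation from the gene's mean over all livers (log2), with the slide under each liver. WT 1 and WT 2 on slide 1 are highest in both sets, and WT 4 lies level with the KO livers.

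The slides touch these values. The cytosolic median was -0.22 within slide 1, where 18 of the 20 genes were below 0, and 0.0046 within slide 3, where 10 were. The mitochondrial median was -0.13 and -0.06, with 13 and 12 of the 16 genes below 0. Over all genes the median was -0.0066 within slide 1 and -0.0010 within slide 3. With slide as a fixed block in the model the medians were -0.13 and -0.11, against -0.01 over all genes, and 18 and 14 genes were below 0. Within slide 3 the KO liver is from a male and the WT livers are from females, so genotype and sex cannot be told apart there.

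Between the sexes 2 members passed, Mars and Nars2, and both were lower in females. Over all genes 11.5% passed for sex, 6.55% as lower and 4.99% as higher in females. The fitted difference was below 0 in 27 of 36 members, against 49.2% of all genes. Mars, which charges the methionine that starts every protein as well as internal methionine, was at 0.15, 0.25, 0.25, 0.09 and -0.01 in the males WT 1, WT 2, WT 5, KO 1 and KO 5. In the females WT 3, WT 4, KO 2, KO 3 and KO 4 it was at -0.21, -0.13, -0.23, -0.05 and -0.06. Every female lay below every male, which also held for Iars and for 5.7% of all genes. The reverse held for no member and for 3.53% of all genes.

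The female minus male difference of Mars was -0.27 (SE 0.07, adjusted p = 0.0356). It did not pass when WT 1, 2, 3, 4 or 5, KO 1 or KO 2 was left out (-0.28 to -0.23, adjusted p = 0.0525 to 0.11), and a second probe gave -0.21 (adjusted p = 0.212). For Nars2 the difference was -0.52 (SE 0.12, adjusted p = 0.0181). It did not pass without WT 3 (-0.42, adjusted p = 0.0626), without KO 5 (-0.47, adjusted p = 0.0533) or with slide as a fixed block (-0.57, adjusted p = 0.0502), and its second probe gave -0.13. Among the probes not used, the second of Ears2 was lower in females (-1.03, adjusted p = 0.00232), while the Ears2 probe used was at -0.01. An Iars2 probe, the one at 0.07 for genotype, was higher in females (0.33, adjusted p = 0.0186), while the Iars2 probe used was at -0.09.

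The effect of the KO did not pass as different between the sexes in any member, in the main model or in any of 22 alternatives (lowest adjusted p = 0.051, for Lars2). At an unadjusted p under 0.05 it differed in 7 of 36 (Aars, Cars, Farsb, Sars and Tars in the cytosol, Aars2 and Lars2 in the mitochondrion), as did 12.5% of all genes, and 0.0317% passed. In all 7 the value was higher in females than in males, as it was in 25 of the 36 members and 53.4% of all genes. In females alone (3 KO, 2 WT) 4 members passed, where 4.43% of all genes did. Lars (-0.45, SE 0.11, adjusted p = 0.0437) and Nars2 (-0.74, SE 0.18, adjusted p = 0.0419) fell, and Cars (0.72, SE 0.09, adjusted p = 0.00245) and Lars2 (0.71, SE 0.12, adjusted p = 0.0101) rose. In males alone (2 KO, 3 WT) none passed, where 2.36% of all genes did; Aars came nearest (-0.43, SE 0.10, adjusted p = 0.0579).

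Cars was the firmest of these calls, since it passed in females in 21 of 22 alternatives, against 15 for Lars2, 8 for Nars2 and 3 for Lars. In males it was at 0.05 (SE 0.09), and the difference between the sexes was 0.68 (SE 0.13, adjusted p = 0.114). Lars2 was at -0.21 (SE 0.12) in males, a difference of 0.92 (SE 0.17, adjusted p = 0.11), and Tars at 0.40 (SE 0.11) in females and -0.35 (SE 0.11) in males, a difference of 0.75 (SE 0.16, adjusted p = 0.155). In females genotype and slide cannot be told apart without help from the males, since the KO females lay on slides 1 and 2 and the WT females on slide 3. With slide as a fixed block neither Cars (0.58, adjusted p = 0.371) nor Lars2 (0.40, adjusted p = 0.637) passed in females. Single livers also ended calls in females: Lars2 without WT 3 (0.60, adjusted p = 0.0785), Nars2 when WT 1, WT 4 or any KO liver was left out (-0.78 to -0.43, adjusted p = 0.0517 to 0.232), and Lars when any liver but WT 5 was left out (-0.58 to -0.32, adjusted p = 0.0509 to 0.243).

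**Figure D4:**
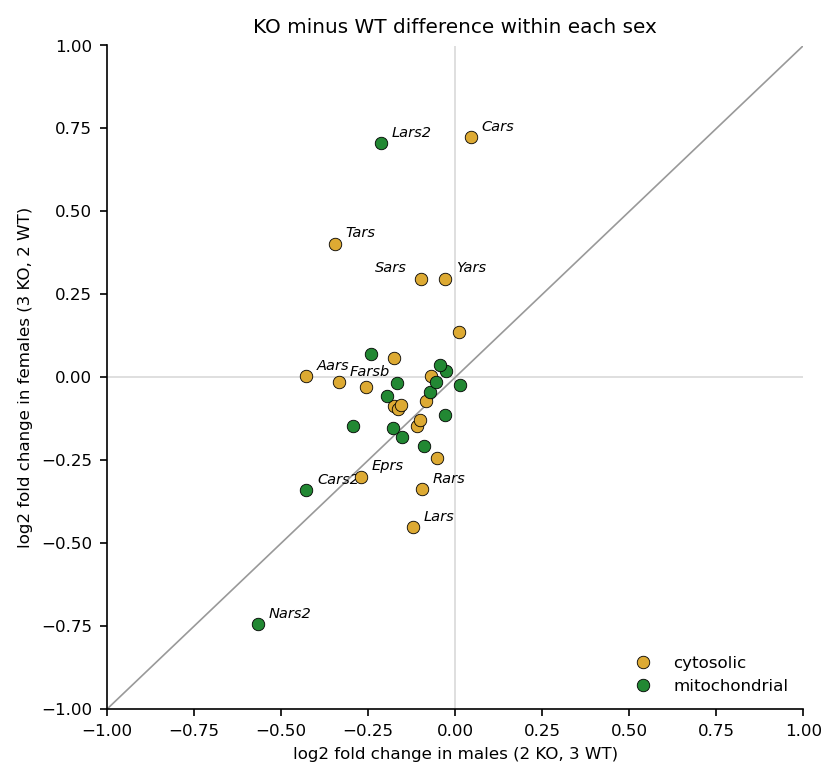
Log2 fold change (KO minus WT) of each member in females against males, with the line of equality. Eprs, Nars2 and Cars2 lie near the line, while Cars, Lars2 and Tars lie well above it, at 0.72, 0.71 and 0.40 in females and 0.05, -0.21 and -0.35 in males.

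The cytosolic synthetases known as ATF4 targets carry an amino acid response element, in which ATF4 binds with a partner. The members' promoters were searched for its core. RefSeq promoters (GRCm38.p6, 250 bases before to 50 after the start) were matched for 27 of the 36 members, 13 cytosolic and 14 mitochondrial. Cars, Hars, Lars, Nars, Rars, Vars, Wars, Hars2 and Pars2 were not matched. The core TGATGCAA, read on both strands, was found in 4 of the 13 cytosolic windows and in none of the 14 mitochondrial ones, and in 1.03% of all genes with a promoter. The looser form TGATGNAA, which contains it, was in the same 4 and in Gars, and in 4.51% of all genes. The windows below show 30 bases around the match in 4 of these genes, with the matching letters or their reverse complement in capitals. They lie at chr13:49682126-49682155 (Iars), chr15:11399655-11399684 (Tars, minus strand), chr4:129189895-129189924 (Yars) and chr6:55037960-55037989 (Gars), the others on the plus strand.
Iars: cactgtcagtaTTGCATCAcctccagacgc
Tars: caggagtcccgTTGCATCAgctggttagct
Yars: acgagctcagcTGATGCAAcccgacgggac
Gars: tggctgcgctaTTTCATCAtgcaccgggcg

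None of the 5 genes with a match to either form passed for genotype, and their fold changes ran from -0.21 to 0.13. Among the 4 shown these were -0.03 for Iars, 0.03 for Tars, 0.13 for Yars and -0.13 for Gars, which holds only the looser form. The 3 genes that fell had no match to either form in their windows. A match is a string of letters and does not show that ATF4 is bound there.

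Glucagon signals through cAMP and CREB, so the promoters of the 3 genes that fell were also read for the CREB site. The full site TGACGTCA, which is its own reverse complement, was in none of the 27 windows and in 2.03% of all genes. The TGACG part of it, on either strand, was in 5 of 13 cytosolic and 5 of 14 mitochondrial windows, and in 23% of all genes. Of the 3 that fell, Eprs and Nars2 held it and Cars2 did not. The 250 bases before each start are given with TGACG or CGTCA in capitals, for Eprs at chr1:185362794-185363043 (plus strand), Nars2 at chr7:96951277-96951526 (plus strand) and Cars2 at chr8:11550772-11551021 (minus strand).
Eprs: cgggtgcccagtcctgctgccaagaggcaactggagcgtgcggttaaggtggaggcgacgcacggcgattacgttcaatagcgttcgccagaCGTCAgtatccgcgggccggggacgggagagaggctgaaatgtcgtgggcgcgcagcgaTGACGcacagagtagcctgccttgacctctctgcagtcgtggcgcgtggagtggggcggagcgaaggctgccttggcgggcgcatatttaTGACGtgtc
Nars2: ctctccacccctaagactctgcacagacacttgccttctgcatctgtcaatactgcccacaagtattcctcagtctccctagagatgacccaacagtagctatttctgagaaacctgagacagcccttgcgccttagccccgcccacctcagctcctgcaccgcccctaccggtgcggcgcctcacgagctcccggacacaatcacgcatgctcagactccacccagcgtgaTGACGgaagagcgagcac
Cars2: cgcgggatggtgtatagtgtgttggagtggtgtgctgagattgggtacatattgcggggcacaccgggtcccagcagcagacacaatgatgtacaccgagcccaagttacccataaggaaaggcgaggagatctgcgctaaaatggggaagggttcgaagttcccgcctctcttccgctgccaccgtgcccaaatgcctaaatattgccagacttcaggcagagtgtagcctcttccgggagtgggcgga

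The Eprs stretch holds 3 such matches, and 64% of its bases are G or C. The Nars2 stretch holds 1 match (58.4% G or C) and the Cars2 stretch none (56% G or C). These are descriptions of letters only.

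The genes around the synthetases were described as 8 lists. In the GCN2 and eIF2 signalling list none of 17 genes passed. These are RNA levels, and the activity of GCN2 was not measured. Eif2ak4, the gene of GCN2, was at -0.03 and Atf4 at 0.08, both named after their values were seen. Among 19 other targets of ATF4, 4 rose and 2 fell. The 4 that changed most were Fgf21, a stress hormone of the liver (2.48, SE 0.20), Chac1, which breaks down glutathione (1.27, SE 0.23), the stress cytokine gene Gdf15 (-0.83, SE 0.22) and the stress protein gene Nupr1 (0.74, SE 0.12). Fgf21, Chac1 and Nupr1 passed without any 1 liver, whereas Gdf15 passed only without KO 3 (adjusted p up to 0.124 without another liver). The median of these 19 genes was 0.10, against -0.12 in the cytosolic synthetases, a difference that was not tested.

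The other enzymes of charging, which include the amidotransferase of glutaminyl transfer RNA and the selenocysteine enzymes, gave no gene that passed of 10, and the median was -0.11. Dtd1, which removes D-amino acids from transfer RNA (-0.29, SE 0.08, adjusted p = 0.0514), lay just outside the threshold and is named after its value was seen. Of 16 genes for processing and modifying transfer RNA, Trdmt1, a methyltransferase, fell (-0.63, SE 0.11, adjusted p = 0.00626) and none rose. Of 9 mitochondrial translation factors, the release factor Mtrf1 fell (-0.34, SE 0.08, adjusted p = 0.0359), none rose and 8 were below 0. The call of Mtrf1 held without WT 5 and was lost without any other liver (adjusted p up to 0.12). Of 9 factors of cytosolic elongation and termination none passed, and 7 were above 0, with a median of 0.14. Every KO liver lay above every WT liver in that list's median deviation (0.02 to 0.11 in KO against -0.22 to 0.01 in WT), while by the mean log2 ratio the groups overlapped (-0.98 to -0.86 in KO and -1.18 to -0.94 in WT).

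Of 15 interferon response genes, a group that can raise Wars, Isg15 and Usp18 fell (-0.52, SE 0.11, and -0.38, SE 0.09) and none rose, while the Wars probe used was at -0.12 (SE 0.07, adjusted p = 0.398). The female WT 4 stood highest in this list, with a median deviation of 0.76, against 0.19 in WT 3 and at most 0.05 in the other livers. Without WT 4 neither Isg15 (-0.44, adjusted p = 0.0636) nor Usp18 (-0.37, adjusted p = 0.0713) passed. Isg15 was also lost without WT 3, KO 1 or KO 4, and Usp18 without WT 2, WT 3 or any KO liver but KO 5. The list's median fold change was -0.52 in females and 0.05 in males, and 0.17 within slide 1 and -0.70 within slide 3. Markers of 9 other cell types were followed beside these results. Of 7 endothelial markers 2 rose, Lyve1 (1.47, SE 0.25) and Pecam1 (0.26, SE 0.07), and all 7 were above 0. Lyve1 passed without any 1 liver and Pecam1 only without WT 5. The mean log2 ratio of that list was 3.1 to 3.6 in WT and 3.7 to 4.0 in KO livers, with no overlap, while by the median deviation WT 3 (0.06) lay above KO 1 (0.03). The mean of 5 bile duct markers was -3.51 to -3.24 in WT and -3.21 to -2.86 in KO, and by the median deviation they did not overlap either, although none of them passed. In the other 7 lists none passed and the ranges overlapped by both measures. In the neutrophil list, of 2 genes tested, KO 5 stood apart, with a median deviation of 2.08 against at most 0.39 in the other livers. The part of these cells in the synthetase values was not tested, and in whole tissue fewer cells of a type and less RNA per cell cannot be told apart.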

How the data were processed

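RNA of 10 livers (5 WT, 5 KO) was hybridised to 2-colour Agilent arrays, liver in Cy5 and a common reference in Cy3, per the labels. The deposited intensity values are mean spot signals and local backgrounds from Agilent Feature Extraction 10.7.3.1, not subtracted, per the file headers. The deposited log10 ratios are the scanner's own background-subtracted and dye-normalised values. The authors also deposited a table of log2 ratios, by a normalisation that no source used here states. Its correlation with the ratios computed here was 0.9994 to 0.9996 per array, which gives its direction. Its slope on those log2 ratios was 0.998 to 1.00, which gives a log2 scale, and its array medians were 0.00776 to 0.023. Flags set by the scanner are used as deposited.

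Spots flagged as outliers in feature or background (169 to 291 per array) were left out. The rest were corrected with normexp (offset 50) and loess in limma 3.58.1 (R 4.3.3), and spots of 1 probe were averaged. The filter kept 26933 of 41174 probes, those that the scanner called well above background in Cy5 on 4 or more of the 10 arrays, and the probe with the highest mean Cy5 signal stood for each of 18921 genes. Probes were named from RefSeq tables (GRCm38.p6) by accession (22951), symbol (6659) or synonym (3109), and 8455 carry the array's own name. The limma model had genotype and sex, with their interaction for effects by sex, and Benjamini-Hochberg adjustment over all genes. The code was tested on simulated data. The number of arrays limits the precision. Labels number the livers but do not name the animals, so p-values measure the spread between these samples.

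Named are all members that passed for genotype, sex or the interaction, the 4 highest and 4 lowest fold changes in each set, and up to 4 genes that passed in each related list. Others are named to account for all 36 members. The members and lists were chosen with earlier results of these data known. Alternatives covered background correction, normalisation, flags, filter, probe choice, slide, replicate number, the sex term and leaving out each liver. Some genes of the related lists and some promoter matches are counted but not reported singly here.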

Additional observations from a re-analysis of the deposited data

Results flagged for a closer look

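In 7 of the 72 groups of 5 livers (36 genes in each genotype), 1 liver lay apart from the other 4 by Dixon's test, which chance alone does in about 1 group in 20 (5%). Among the KO livers, KO 5 was the highest for Lars, at -1.33 against -1.52 to -1.49 in the others. KO 3 was the highest for Sars, at -1.53 against -1.63 to -1.62, and for Fars2, the mitochondrial phenylalanine enzyme, at 1.48 against 1.35 to 1.38. KO 1 was the lowest for Yars, at -1.06 against -0.91 to -0.87. KO 2 was the highest for Cars2, at 0.25 against 0.03 to 0.08, and KO 4 the highest for Wars2, the mitochondrial tryptophan enzyme, at -0.59 against -0.90 to -0.86. Among the WT livers, WT 4 was the lowest for Rars2, at -0.16 against 0.09 to 0.16. No liver accounted for more than 2 of the 7.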

How the results depend on the processing

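The fold changes of Eprs, Nars2 and Cars2 kept their sign in all 23 alternatives tested with a p, but the number of genes past the threshold did not hold. No cytosolic gene passed with flagged spots removed after normexp, median centring, slide as a fixed block, the replicate block or feature flags only (chosen after seeing the data), while 2 passed with the mean of all probes. No mitochondrial gene passed under the same settings except the fixed slide block, where 1 passed, as with the mean of all probes and without the sex term. Over all genes 339 passed with flags removed after normexp, 337 with feature flags only, 279 with median centring (201 of them rises, 72%), 303 with the replicate block and 619 without the sex term, against 1127. For sex, 0 members passed with flags removed after normexp, median centring, the replicate block or feature flags only, and 1 with slide as a fixed block. The cytosolic median was -0.0082 with median centring, -0.22 within slide 1 and 0.0046 within slide 3, and the mitochondrial median was 0.0069 with median centring. With median centring the median of all genes lay above those of both sets. Leaving out 1 liver gave 0 to 3 cytosolic and 1 to 2 mitochondrial calls, 590 to 1173 over all genes (590, 596 and 667 without WT 3, KO 1 or KO 4) and 0 to 2 for sex, with medians of -0.13 to -0.10 and -0.14 to -0.08. No member passed for the interaction in any of the 22 alternatives.

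No label says whether replicate numbers pair these livers. Deviations of livers numbered 1 to 5 from their genotype's mean correlated at 0.53, -0.43, 0.43, 0.51 and 0.22, the 4 positive ones between livers of 1 sex. After the sex term they correlated at -0.22, 0.25, -0.31, -0.28 and -0.16. The sex term also takes out what livers of 1 sex share, so these values cannot settle whether the numbers pair livers. Under the replicate block the calls were lost at fold changes of -0.29 (Eprs), -0.39 (Cars2) and -0.63 (Nars2). Where a call changed, the cause was not tested. Mars2, well above background on 6 arrays, is the member that signal limits most.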
